A study of Mus musculus with 18 samples.

Results

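The 6 libraries described here hold the nascent RNA that WT mouse embryonic stem (mES) cells made during 10 min (3 libraries) and 20 min (3 libraries) of labelling, and they are 6 of the 18 libraries of the series. They were chosen by the labels alone, as every library of wildtype genotype with a labelling time of 10 or 20 min. Cells of a single WT line were seeded in dishes, given 1 mM 5-ethynyl uridine (EU) for the stated time and lysed, and each replicate was a dish, so the spread between replicates is that between dishes of 1 line. The cells grew in serum with LIF and the inhibitors CHIR99021 and PD0325901, and feeder cells had been cleared by passages on gelatin. The remaining libraries hold WT cells at 40 min and *Tet2*-KO cells at 10, 20 and 40 min, with 3 libraries in each group, and *Tet2*-KO cells enter below only where the change from 10 to 20 min was compared between genotypes.

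EU is a uridine analogue that RNA polymerases build into RNA while it is being made. The alkyne of EU is then linked to biotin by a click reaction, so that the labelled RNA can be pulled out with streptavidin beads. A longer pulse lets polymerases travel further into long genes, and lets more of the labelled RNA be spliced, processed or degraded before the cells are lysed. PD0325901 blocks MEK and thus ERK signalling, whose textbook targets include *Egr1*, *Spry4* and the *Dusp* phosphatases.

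The gene reads of a library numbered 21919602 to 22294342 at 10 min and 18929993 to 21470988 at 20 min. Reads that fell on no counted feature made up 15.9% to 16.9% of all reads in the tables of these 6 libraries. Every pair of replicates differed by more than counting noise, with a mean chi-square per gene between 2.15 and 5.26 over the 6 pairs, so each library was kept as its own sample. Of 22 markers of pluripotent cells, 21 had reads in all 6 libraries and *Sox2* was listed at 0 in each of them. Of 12 markers of primitive endoderm, 8 had reads in all 6 libraries, whereas *Sox17*, *Foxa2* and *Afp* had at most 7 reads in any library. Of 15 markers of fibroblasts, 12 had reads in all 6 libraries and *Lum* had none in any of them. The 15 fibroblast markers together took 111.4 to 120.9 CPM (reads on a gene scaled to a common total of gene reads) at 10 min and 70.1 to 72.0 at 20 min, and their values are given with the genes that lost share.

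The first question was how much labelled RNA was added when the pulse was extended from 10 to 20 min. The total was measured as gene reads per read of the ERCC spike-in, a set of synthetic RNAs that had been added to the eluted RNA in proportion to the total RNA of each dish. At 10 min the 3 libraries held 46.6, 50.8 and 42.8 gene reads per ERCC read, and at 20 min they held 144.5, 157.2 and 140.2. All 3 libraries of 20 min lay above all 3 of 10 min. The mean rose from 46.7 ± 4.02 (SD, n = 3) to 147 ± 8.86 (SD, n = 3), a ratio of 3.15, while the labelling time rose 2-fold. An exact permutation test gave a two-sided p of 0.1, the smallest that 3 libraries against 3 can give. The ratio was 3.16 with protein-coding genes alone and 3.15 without the 100 genes with most reads.

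**Figure D1:**
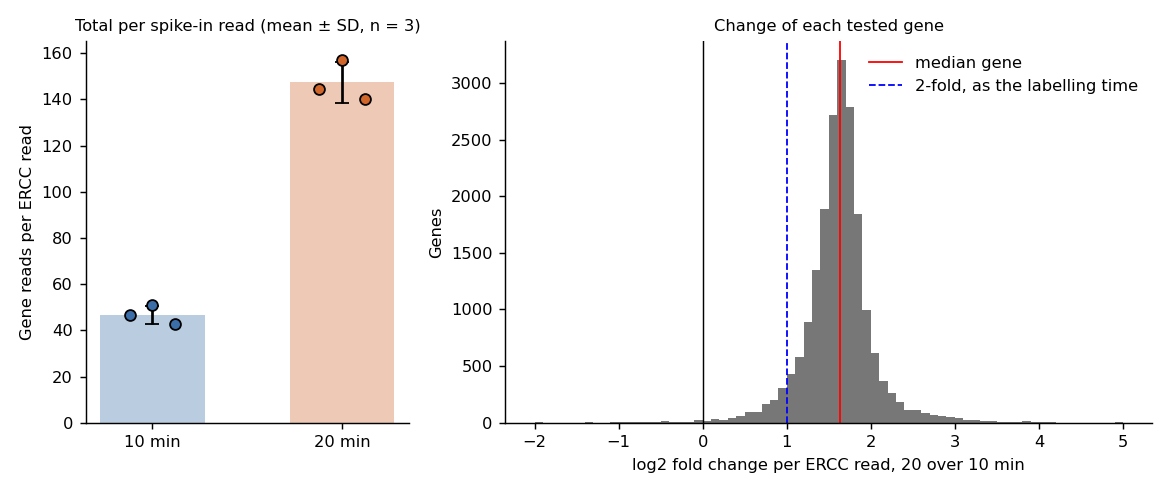
Left, gene reads per ERCC read in each library (points), with the mean (bars) and SD (error bars, n = 3) at 10 and 20 min of EU. Right, the number of genes by log2 fold change per ERCC read, 20 over 10 min, for the 19910 genes tested, with values beyond -2 or 5 drawn at those ends. The median gene (red) lies at 1.63, above the line of a 2-fold rise (dashed) and far above 0.

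Almost every gene followed the total upwards. Per ERCC read, 18934 of 19910 genes rose (95.1%) and 18 fell (0.0904%), 95.2% in either direction, at an adjusted p under 0.05 by edgeR's quasi-likelihood test. The median gene rose 3.10-fold, a log2 fold change of 1.63, and 90% of the genes lay between 0.96 and 2.24 on that scale, the 5th and 95th percentiles. These values carry the ratio of the totals, so 2 further scales were used to ask which genes moved away from it. On the first, a gene's share of the gene reads was normalized by TMM (trimmed mean of M values, which takes the bulk of genes as the reference). On the second, a gene's rise per ERCC read was divided by that of the total.

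By share (TMM), 2207 of 19910 genes gained (11.1%) and 1840 lost (9.24%) from 10 to 20 min, 20.3% in all. The changes were small for most genes. The log2 fold change lay between -0.19 and 0.17 from the 25th to the 75th percentile, and 64.6% of them changed by less than 1.2-fold. When the change was required to exceed 1.2-fold, 87 genes gained (0.437%) and 187 lost (0.939%). The values of the 10 and 20 min libraries did not overlap for 5916 genes (29.7%), with 20 min higher for 3202 (16.1%) and lower for 2714 (13.6%). Against the rise of the total, 1782 genes rose by more (8.95%) and 2210 by less (11.1%), 20.1% in all. The median gene lay 0.02 below the total on the log2 scale, so the split between gains and losses depends on whether the typical gene or the total is the reference.

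Protein-coding genes were ranked by their change of share among those with a mean log2 CPM above 2, a mean over all 18 libraries of the series and not over these 6. The 10 with the lowest log2 fold change were *Acta2*, *Inhba*, *Col12a1*, *Tnc*, *Col1a1*, *Col8a1*, *Egr1*, *Thbs1*, *Csf1* and *Col5a2*, from -2.26 to -1.64. *Acta2*, which encodes smooth muscle actin (mm10, as for all positions here, chromosome 19, 34241090 to 34255590, 9 exons), held 12.7, 13.8 and 12.5 CPM on the TMM scale (TMM CPM) at 10 min and 2.48, 3.43 and 2.25 at 20 min. All 3 libraries of 20 min were below all of 10 min, with a log2 fold change of -2.26 ± 0.17 (SE) and an adjusted p of 3.89e-12. *Tnc*, the matrix protein tenascin C (chromosome 4, 63959785 to 64047015), held 22.04, 25.56 and 24.47 TMM CPM at 10 min and 5.76, 5.45 and 5.76 at 20 min. The log2 fold change of *Tnc* was -2.08 ± 0.14 (SE, adjusted p = 3.43e-13). *Col1a1*, the main chain of type I collagen, fell from 6.83 ± 0.940 to 1.72 ± 0.101 TMM CPM (SD, n = 3). *Inhba*, which encodes the activin A subunit, held 10.4 to 12.65 TMM CPM at 10 min and 2.23 to 2.79 at 20 min. The macrophage growth factor gene *Csf1* fell by 1.77 on the log2 scale (SE 0.18).

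Some of these genes also fell per ERCC read, where almost all others rose. Of the 18 genes that fell per ERCC read, 4 were among the 10 just named, *Acta2*, *Col12a1*, *Inhba* and *Tnc*. The others were *Col1a2*, *Col3a1*, *Lox*, *Postn*, *Prrx1*, *Ankrd1*, *Pappa*, *Ccdc80*, *Adamts5*, *Ccl2*, *Dll1*, *Lrrc32*, *Gm30567* and *Gm45118*. These others were named after their values were seen. Some had very few reads at 20 min, with 0 in every library for *Gm30567*, 1 to 3 for *Lrrc32* and 1 to 4 for *Dll1*. *Tnc* had 1.07, 1.35 and 1.10 reads per 1000 ERCC reads at 10 min and 0.853, 0.872 and 0.836 at 20 min, so the level itself was lower after the longer pulse (log2 fold change -0.46 ± 0.16, SE, adjusted p = 0.00365). *Col1a2*, the second chain of type I collagen, had 0.288, 0.203 and 0.250 reads per 1000 ERCC reads at 10 min and 0.118, 0.0997 and 0.0522 at 20 min. For *Col1a2* the log2 fold change per ERCC read was -1.48 ± 0.33 (SE, adjusted p = 1.63e-05). *Ankrd1*, a gene of the stretch and injury response, fell by 1.30 on the same scale (SE 0.27, adjusted p = 1.69e-06). With at least 10 counts required in every one of the 6 libraries, 7 genes fell per ERCC read.

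Of the 15 fibroblast markers, 11 could be tested, of which 8 lost share (72.7%, against 9.24% of all tested genes) and none gained. The median log2 fold change was -1.64. *Col1a2* (-3.11), *Postn* (-2.97), *Col3a1* (-2.94) and *Prrx1* (-2.71) lost most, but *Col3a1* and *Postn* had at most 5 reads in any library of 20 min. *Fbn1*, the microfibril protein fibrillin-1, and *Col5a1* had the highest mean levels of the list and lost less. *Fbn1* held 18.95, 20.5 and 22.2 TMM CPM at 10 min and 15.7, 14.3 and 14.85 at 20 min (log2 fold change -0.46 ± 0.10, SE, adjusted p = 0.000615). *Pdgfrb* (-0.36), *Loxl1* (-0.14) and *Col6a3* (-1.25) were not called. The median of the list was -0.43 when only genes with 10 counts in every library were kept, which removes the members with the largest losses. The summed share of the 15 markers was 117 ± 4.95 CPM (SD, n = 3) at 10 min and 70.9 ± 0.957 at 20 min, with no overlap, and an exact permutation p of 0.1, which is the smallest possible (Benjamini-Hochberg adjusted p = 0.17 over 34 sums). In bulk samples fewer cells of a type and less RNA per cell cannot be told apart, and the part of such cells in these losses was not tested.

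**Figure D2:**
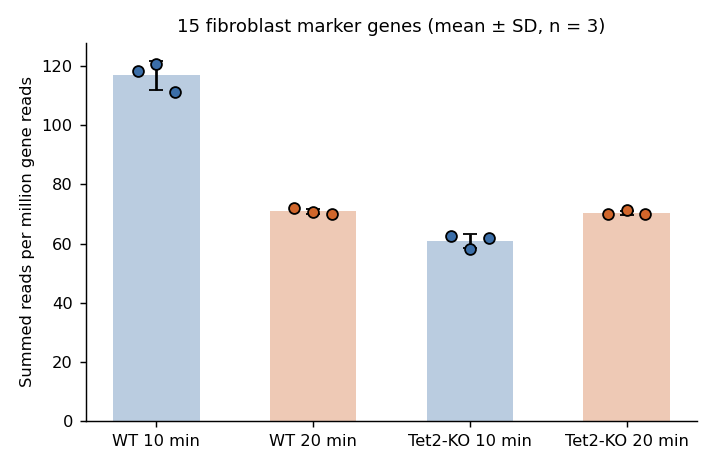
Summed CPM (share of gene reads) on the 15 fibroblast marker genes in each library (points), with the mean (bars) and SD (error bars, n = 3) for WT and *Tet2*-KO labels at 10 and 20 min. The 3 WT libraries of 10 min sit between 111.4 and 120.9, above all 9 of the other libraries, which sit between 58.1 and 72.0.

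*Egr1*, an immediate-early transcription factor (chromosome 18, 34859823 to 34864984), had the largest loss among the called genes of the list of short-lived mRNAs. It held 61.6, 60.6 and 53.5 TMM CPM at 10 min and 15.8, 17.6 and 16.4 at 20 min, with a log2 fold change of -1.82 ± 0.10 (SE, adjusted p = 1.93e-14). Per 1000 ERCC reads its level was nearly the same at both times, with a fold of 0.87 on a scale where the median gene rose 3.10-fold. *Spry4*, a feedback inhibitor of receptor tyrosine kinase signalling (chromosome 18, 38586247 to 38601415), moved the other way. *Spry4* held 25.8, 26.4 and 26.6 TMM CPM at 10 min and 43.85, 46.05 and 43.9 at 20 min, a log2 fold change of 0.76 ± 0.07 (SE, adjusted p = 1.08e-09).

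The largest gains of share were smaller than the largest losses. Among the 10 protein-coding genes of the same ranking with the highest log2 fold change were *Rtl1*, *Zfp46*, *Rhcg*, *Gm9732*, *Spic*, *Spry4*, *Cacna1e*, *Hist2h2ab* and *Tie1*, from 1.19 down to 0.72. *Rtl1*, an imprinted gene derived from a retrotransposon (chromosome 12, 109589193 to 109600330, 2 exons), held 8.92, 9.41 and 7.76 TMM CPM at 10 min and 19.1, 22.2 and 18.3 at 20 min. The log2 fold change of *Rtl1* was 1.19 ± 0.10 (SE, adjusted p = 1.89e-10), and per ERCC read it rose 7.05-fold. *Zfp46*, which encodes a zinc-finger protein, rose from 2.85 ± 0.489 to 5.24 ± 0.168 TMM CPM (SD, n = 3). Apart from *Rtl1* and *Spry4*, these genes held under 10 TMM CPM in every WT library of 10 and 20 min. *Spic*, *Cacna1e*, *Rhcg* and *Gm9732* were low in WT and higher in the libraries labelled *Tet2*-KO, which count in the mean used for the ranking. *Spic* had 18 to 38 reads in each of the 6 WT libraries and 0.951 ± 0.263 TMM CPM at 10 min (SD, n = 3), against 7.73 to 8.92 in the 6 libraries labelled *Tet2*-KO at 10 and 20 min. *Cacna1e* had 35 to 68 reads in the WT libraries, *Rhcg* 28 to 89 and *Gm9732* 28 to 86. *Gm9732* was no longer called without replicate 2 of 10 min (adjusted p = 0.0628), and *Spic* and *Cacna1e* were not called when only the 6 WT libraries were fitted (adjusted p = 0.151 and 0.068). When a change beyond 1.2-fold was required, *Rhcg*, *Gm9732*, *Spic*, *Cacna1e*, *Hist2h2ab* and *Tie1* were not called (edgeR, adjusted p from 0.0517 to 0.122).

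**Figure D3:**
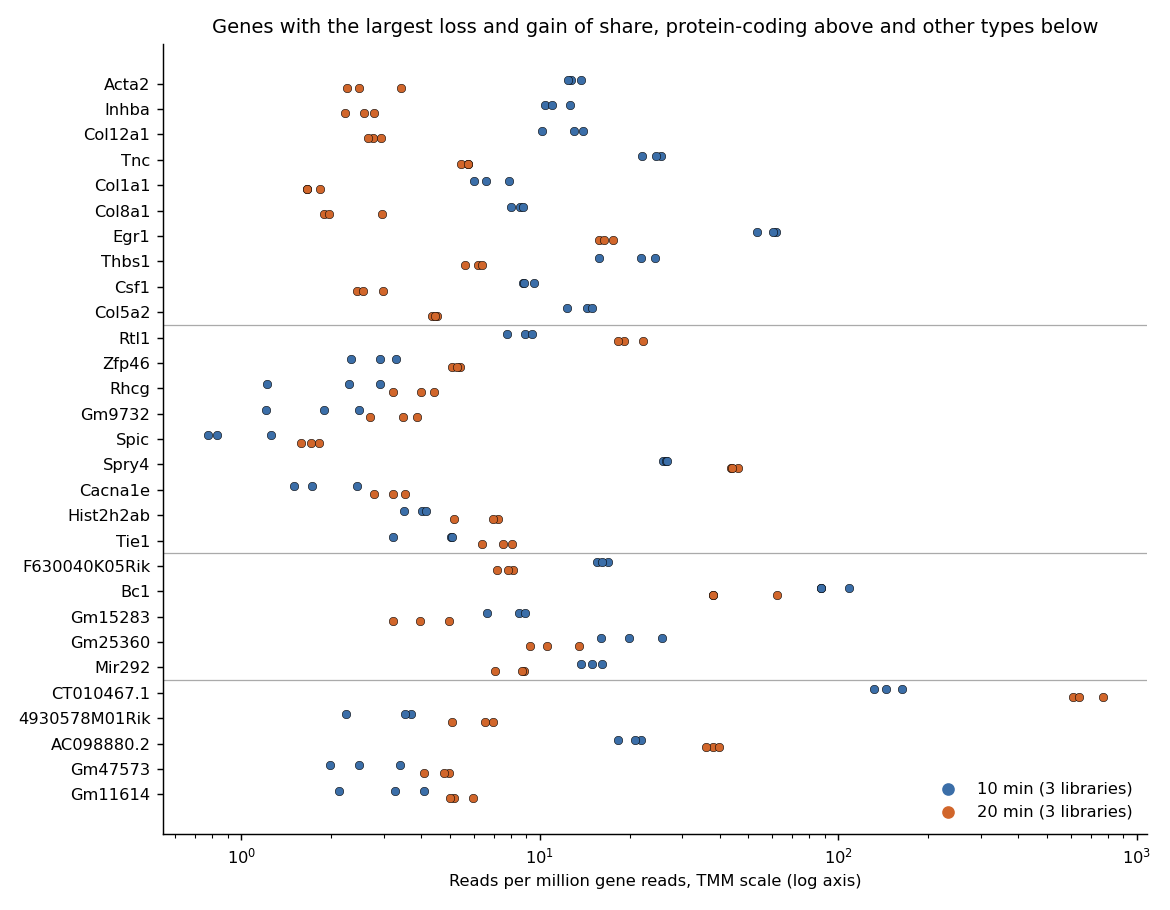
CPM on the TMM scale (log axis) in each of the 3 libraries of 10 min (blue) and the 3 of 20 min (orange). From the top, the 10 protein-coding genes with the largest loss, 9 of those with the largest gain, and the 5 genes of other types with the largest loss and gain. The points of the 2 times do not overlap for any of the 29 genes, which was part of the rule that chose them.

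Genes whose mature mRNAs are known to be abundant and long-lived were next grouped by function. Of 80 ribosomal protein genes tested, 45 lost share (56.25%, against 9.24% of all tested genes), 1 gained (*Rpl7a*, 0.16) and 34 were not called. The median log2 fold change was -0.17 against 0.00 for all genes. These genes had more reads, with a median log2 CPM of 6.83 against 2.98 for all tested genes. Per ERCC read all 80 still rose, with a median of 2.755-fold, and 47 of the 80 rose by less than the total. *Rpl37*, a protein of the large subunit (chromosome 15, 5116645 to 5119140, 4 exons), held 530.5, 525.4 and 563 TMM CPM at 10 min and 332, 338 and 326 at 20 min (log2 fold change -0.70 ± 0.04, SE, adjusted p = 7.27e-15). *Rps23* of the small subunit held 500.5, 481 and 471 at 10 min and 381, 369 and 402 at 20 min (log2 fold change -0.33 ± 0.06, SE). *Rplp1*, an acidic stalk protein, overlapped between the times, with 0.10 ± 0.10 (SE). Members of 5 kb or more and members under 5 kb had the same share of losses, 9 of 16 and 36 of 64, a split chosen after values were seen. Ribosomal protein genes have many processed pseudogenes, to which some of their reads could have been assigned.

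Of 80 nuclear genes of oxidative phosphorylation (OXPHOS) tested, 26 lost share (32.5%, against 9.24% of all genes). None gained and 54 were not called, with a median of -0.13. *Cox6c*, a subunit of cytochrome c oxidase, held 329, 359 and 314 TMM CPM at 10 min and 256, 248 and 220 at 20 min (log2 fold change -0.47 ± 0.05, SE, adjusted p = 4.03e-09), while *Ndufs4* of complex I, with a span of 100.5 kb, overlapped between the times (-0.03). Of 18 glycolysis genes, 10 lost share (55.6%), none gained and 8 were not called, with a median of -0.21. The median log2 CPM was 4.71 for the OXPHOS genes and 5.34 for the glycolysis genes, against 2.98 for all tested genes. *Pfkp*, a phosphofructokinase and a main control point of the pathway (chromosome 13, 6579768 to 6648777), held 172, 170 and 166 TMM CPM at 10 min and 111, 107 and 106 at 20 min. The log2 fold change of *Pfkp* was -0.64 ± 0.03 (SE, adjusted p = 1.54e-15), so that it rose 1.98-fold per ERCC read where the total rose 3.15-fold. *Hk1* (-0.63), *Ldhb* (-0.60), *Pfkl* (-0.53), *Pgk1* (-0.50) and *Gpi1* (-0.45) also lost share. *Hk2*, the hexokinase with most reads in these cells, did not, with 288, 296 and 304 TMM CPM at 10 min and 302, 310 and 305 at 20 min. Of 74 mitochondrial ribosomal protein genes, 10 lost share (13.5%) and 3 gained (4.05%), with a median of -0.06. The background is 9.24% lost and 11.1% gained.

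Other abundant mRNAs were split. In a list of 32 tested genes of the cytoskeleton and of translation, 6 gained share (18.75%) and 7 lost (21.9%). The background is 11.1% gained and 9.24% lost. The median was 0.03. Reads per gene were higher here too, with a median log2 CPM of 7.31 against 2.98 for all tested genes. The ubiquitin gene *Ubb* (-0.36) and the thymosin gene *Tmsb10* (-0.25) lost share, whereas *Tpm1*, a tropomyosin, gained from 110.6, 96.9 and 100.5 to 145.4, 138.1 and 139.5 TMM CPM (log2 fold change 0.46 ± 0.04, SE). *Actb* (0.24) and *Actg1* (0.20), the cytoplasmic actins, also gained. *Ncl*, the nucleolar protein nucleolin and the gene of the list with most reads, gained by 0.09.

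**Figure D4:**
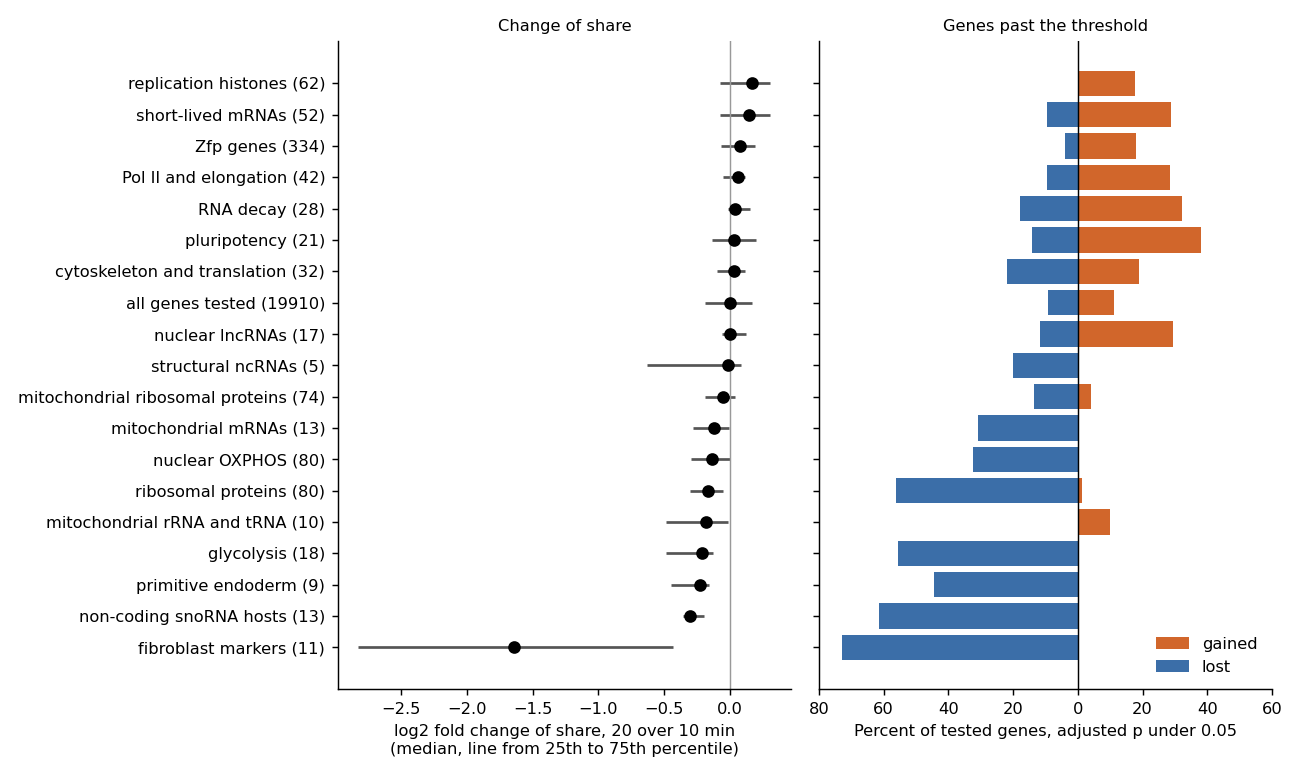
Left, the median log2 fold change of share (TMM, 20 over 10 min) of the tested genes of each list (points), with lines from the 25th to the 75th percentile; the number of tested genes is in parentheses. Right, the percent of tested genes that gained (orange) or lost (blue) at an adjusted p under 0.05. The medians of fibroblast markers, non-coding snoRNA hosts, ribosomal protein and glycolysis genes lie below 0, and those of replication histones, short-lived mRNAs and *Zfp* genes above 0.

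Among mRNAs known for rapid turnover, more gained share than lost it. Of 52 tested, 15 gained share (28.85%) and 5 lost (9.62%), with a median log2 fold change of 0.14. The background is 11.1% gained and 9.24% lost. *Myc* (0.47), *Jun* (0.38), *Junb* (0.39), *Socs3* (0.49) and *Plk3* (0.49) gained, all encoding regulators of growth or stress signalling. *Mdm2*, the ubiquitin ligase of p53 (chromosome 10, 117688875 to 117710758), held 328.5, 325.7 and 331.7 TMM CPM at 10 min and 364.8, 361.6 and 362.9 at 20 min, a small gain of 0.14 ± 0.02 (SE, adjusted p = 4.04e-05). The losses besides *Egr1* were *Gadd45g* (-1.25), *Dusp5* (-0.45), *Btg1* (-0.28) and *Klf4* (-0.13). *Fos* (-0.38) and *Ier2* (0.17) were not called. The heptamer TATTTAT, an element of unstable mRNAs, was searched on the sense strand of annotated 3′ UTRs, with overlapping copies counted. It was present in 4382 of the protein-coding genes with a 3′ UTR, whose median log2 fold change was 0.01, against 0.00 for the 10569 genes without it.

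Of 62 replication-dependent histone genes tested, which are intronless or nearly so, 11 gained share (17.7%, against 11.1% of all genes), none lost and 51 were not called, with a median of 0.17. Members that gained included the linker histone genes *Hist1h1a* (0.21), *Hist1h1b* (0.21), *Hist1h1c* (0.23), *Hist1h1d* (0.25) and *Hist1h1e* (0.39). *Hist1h1c* was not called by DESeq2 (adjusted p = 0.134) or in 4 of the 6 fits that left out 1 library (highest adjusted p = 0.167). Core histone genes are near-identical copies, so reads could not always be assigned to one of them. *Zfp* genes, which encode zinc-finger proteins, gained in 60 of 334 cases (17.96%) and lost in 13 (3.89%), with a median of 0.07. Among all tested genes, 11.1% gained and 9.24% lost. Reads per *Zfp* gene were higher, with a median log2 CPM of 4.28 against 2.98 for all tested genes, and the part of coverage was not tested. *Zfp704* held 604, 592 and 594 TMM CPM at 10 min and 725, 727 and 722 at 20 min (log2 fold change 0.28 ± 0.02, SE, adjusted p = 1.12e-12).

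Genes that make or remove RNA were tested as 2 lists. Of 42 genes of RNA polymerase II and its elongation factors, 12 gained share (28.6%) and 4 lost (9.52%), with a median of 0.06. The background is 11.1% gained and 9.24% lost. *Polr2a*, the largest subunit of the polymerase, gained by 0.14, and *Ccnt2* (0.26) and *Cdk12* (0.15) of the elongation kinases gained as well. The small subunit gene *Polr2d* lost by 0.44, from 29.4, 30.8 and 31.5 TMM CPM to 20.5, 20.6 and 26.4, and *Supt5*, a pausing and elongation factor, lost by 0.24. Of 28 genes of RNA decay, 9 gained (32.1%) and 5 lost (17.9%), with a median of 0.04. Both lists had more reads per gene, with median log2 CPM of 6.04 and 6.65 against 2.98 for all tested genes. *Cnot3* of the deadenylase complex gained from 84.5 ± 5.66 to 106 ± 0.768 TMM CPM (SD, n = 3), while the exosome gene *Exosc2* lost by 0.27.

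Pluripotency genes gained in 8 (38.1%) and lost in 3 (14.3%) of 21 cases, with a median of 0.03. The background is 11.1% gained and 9.24% lost. These genes had more reads, with a median log2 CPM of 6.7 against 2.98 for all tested genes, and the part of coverage was not tested. *Sall4* held 54.7, 73.2 and 59.3 TMM CPM at 10 min and 87.9, 84.3 and 86.2 at 20 min, a log2 fold change of 0.47 ± 0.06 (SE, adjusted p = 6.96e-07). *Klf5* (0.33), *Lin28a* (0.28), *Esrrb* (0.21), *Tbx3* (0.20) and *Pou5f1* (0.15) gained as well, and *Nanog* was not called (0.06). *Dppa4* lost by 0.55, from 77.4, 71.9 and 89.2 to 51.3, 49.2 and 61.9 TMM CPM. *Klf4* stands both here and in the list of short-lived mRNAs. Of 9 primitive endoderm genes tested, *Gata4* (-0.45), *Col4a1* (-0.45), *Hnf4a* (-0.41) and *Lama1* (-0.13) lost share (44.4%) and none gained.

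Non-coding hosts of small nucleolar RNAs (snoRNAs) were tested as a further list. These genes carry snoRNAs in their introns, and their spliced RNAs are known to be degraded quickly. Of 13 tested, 8 lost (61.5%, against 9.24% of all tested genes), none gained and 5 were not called. The median log2 fold change was -0.31, and 10 rose by less than the total. *Gas5* (chromosome 1, 161034422 to 161038539, 12 exons) held 232, 231 and 240 TMM CPM at 10 min and 180, 177 and 211 at 20 min (log2 fold change -0.31 ± 0.04, SE, adjusted p = 2.44e-06). *Zfas1* (-0.36), *Snhg8* (-0.47), *Snhg6* (-0.36) and *Snhg5* (-0.31) lost as well. Nuclear long non-coding RNAs were mixed, with 5 of 17 gaining (29.4%) and 2 losing (11.8%), against 11.1% and 9.24% of all tested genes. Their median log2 fold change was 0.00. Both lists had more reads per gene, with median log2 CPM of 5.31 for the snoRNA hosts and 7.48 for the nuclear RNAs. The median of all tested genes was 2.98, and the part of coverage was not tested. *Kcnq1ot1*, an unspliced imprinted antisense RNA with a span of 93.1 kb, held 255, 257 and 252 TMM CPM at 10 min and 305, 306 and 310 at 20 min (log2 fold change 0.27 ± 0.02, SE, adjusted p = 4.7e-10). *Malat1*, the most abundant nuclear RNA of the list, changed by -0.04, and it was no longer called without replicate 1 of 10 min (adjusted p = 0.11), replicate 1 of 20 min (0.0506) or replicate 3 of 20 min (0.174), nor by DESeq2 (0.0505). *Neat1* (-0.02) and *Meg3* (0.05) were not called.

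Among genes of other types with a mean log2 CPM above 2 over the 18 libraries, the largest gain was in a ribosomal RNA gene model, *CT010467.1* (chromosome 17, 39846353 to 39848827). It held 164, 145 and 132 TMM CPM at 10 min and 768, 613 and 640 at 20 min, a log2 fold change of 2.197 ± 0.15 (SE, adjusted p = 1.125e-12), and it rose 14.1-fold per ERCC read. Ribosomal RNA had been depleted before capture, and the rRNA genes are repeated, so this value rests on the reads that remained and could be placed here. The processed pseudogene *AC098880.2* gained from 20.35 ± 1.82 to 38.0 ± 1.82 TMM CPM (SD, n = 3), and 4930578M01Rik (0.97), *Gm47573* (0.81) and *Gm11614* (0.76) followed. *Gm11614* was not called without replicate 2 of 10 min (adjusted p = 0.0684).

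The largest losses among these genes of other types were in F630040K05Rik (-1.07), *Bc1* (-1.03), *Gm15283* (-0.98), *Gm25360* (-0.88) and *Mir292* (-0.87). *Bc1*, a short RNA made by RNA polymerase III (chromosome 7, 144914470 to 144914637, 1 exon), held 87.6, 87.4 and 109 TMM CPM at 10 min and 38.2, 38.1 and 62.4 at 20 min. *Gm25360* is annotated as a small nuclear RNA (snRNA). Of 26 snRNA genes tested 5 lost share (19.2%) and none gained, with a median of -0.58. Of 14 snoRNA genes 2 lost (14.3%) and none gained, with a median of -0.57. Among all tested genes 9.24% lost share. Both types had few reads, with a median log2 CPM of -0.35 for snRNA and 0.01 for snoRNA genes, against 2.98 for all tested genes. *Rn7sk*, the RNA of the 7SK particle that holds back elongation, overlapped between the times, with 162, 183 and 132.5 TMM CPM at 10 min and 181, 189.6 and 137 at 20 min. *Rny3*, a Y RNA, lost by 1.37 at 1.81 to 2.44 TMM CPM at 10 min and 0.4965 to 1.125 at 20 min, and it was not called without replicate 1 of 20 min (adjusted p = 0.0636). snRNA genes together held 84.9 ± 5.23 CPM at 10 min and 54.2 ± 9.41 at 20 min (SD, n = 3), with no overlap (exact permutation p = 0.1, adjusted 0.17).

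*Mir292* belongs to the miR-290 cluster, which is highly expressed in mES cells and whose hairpins are cut from 1 primary transcript by Drosha. The mature sequences are shown because 4 of the 7 hairpins of the cluster lost share and several share a seed (bases 2 to 8, in capitals, which pair with targets). They are from RefSeq (GRCm38.p6, chromosome 7, plus strand), where 13 mature miRNAs of the 7 hairpins were found.
mmu-miR-291a-3p: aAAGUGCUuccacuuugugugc
mmu-miR-294-3p: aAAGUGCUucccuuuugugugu
mmu-miR-295-3p: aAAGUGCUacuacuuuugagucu
mmu-miR-290a-3p: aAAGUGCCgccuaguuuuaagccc
mmu-miR-291b-3p: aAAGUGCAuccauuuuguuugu
mmu-miR-293-3p: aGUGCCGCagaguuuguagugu
mmu-miR-290a-5p: aCUCAAACuaugggggcacuuu
mmu-miR-292a-5p: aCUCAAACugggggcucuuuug
mmu-miR-293-5p: aCUCAAACugugugacauuuug
The seed AAGUGCU is shared by 3 of the mature miRNAs and CUCAAAC by 3 others.

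The libraries were not made from size-selected small RNA. Reads over the 7 hairpins may therefore come from the primary transcript or its intermediates, which the counts cannot tell apart. *Mir292*, with the 5p arm printed above (hairpin from 3219189 to 3219270), held 14.9, 16.15 and 13.7 TMM CPM at 10 min and 8.84, 8.72 and 7.06 at 20 min (log2 fold change -0.87 ± 0.13, SE, adjusted p = 5.44e-06). *Mir290a* (-0.67), *Mir295* (-0.67) and *Mir291b* (-0.34) also lost share. *Mir294* (-0.48, adjusted p = 0.0715) and *Mir293* (-0.50, adjusted p = 0.059) were not called, although their libraries did not overlap. *Mir291a*, which carries the same 3p seed as *Mir294* and *Mir295*, overlapped, with 9.18, 8.46 and 7.63 TMM CPM at 10 min and 7.001, 7.84 and 8.37 at 20 min. Of the 42 miRNA genes tested in all, 7 lost share (16.7%) and 1 gained (2.38%), against 9.24% and 11.1% of all tested genes. The losses include *Mir292*, *Mir290a*, *Mir295* and *Mir291b*, which lie in 1 primary transcript. They are thus not independent, and the count says little about miRNA genes as a type.

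Transcripts of the mitochondrial genome are made by a separate polymerase. They lost share in 4 of 13 mRNAs (30.8%, against 9.24% of all tested genes) and gained in none. The 13 mRNAs had a median log2 CPM of 9.38, against 2.98 for all tested genes. *mt-Nd6*, the mRNA of the light strand, held 3322, 3317 and 3314 TMM CPM at 10 min and 2546, 2496 and 2207 at 20 min, a log2 fold change of -0.46 ± 0.04 (SE, adjusted p = 8.29e-11). *mt-Nd2* (-0.36), *mt-Nd5* (-0.25) and *mt-Cytb* (-0.11) lost as well, and *mt-Co1* (0.01) and *mt-Nd1* (-0.04) were not called. Of the 10 mitochondrial rRNAs and tRNAs tested, *mt-Ty* gained (0.41), although its libraries overlapped, and none lost. The 12S rRNA *mt-Rnr1* stayed at 2166 to 2219 TMM CPM at 10 min and 2171 to 2229 at 20 min.

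The relation to gene structure was weak over all genes. Across 19901 genes with annotation, Spearman's rho of the log2 fold change of share was -0.01 with span, 0.01 with exon number, 0.03 with transcript length and -0.01 with GC content. Genes are not independent replicates and share the 6 libraries, so no p is given. Among the 15158 protein-coding genes tested, the 558 that span 300 kb or more had the highest median of 8 classes by span. This median log2 fold change was 0.08, and 139 gained share (24.9%) while 27 lost (4.84%), where 13.1% of all protein-coding genes gained and 10.7% lost. In the classes from 50 to 100 kb and from 100 to 300 kb the median was -0.02 in both, and losses outnumbered gains, 424 to 342 and 310 to 260. These 2 classes had more reads per gene, with median log2 CPM of 5.504 and 5.645 against 3.95 in the longest class. The median of the longest class stayed between 0.06 and 0.09 over 13 alternative fits, and those of the 2 classes below it between -0.05 and -0.01.

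Named examples of 300 kb or more were taken, after their values were seen, from the largest changes. *Cdh4*, a cadherin (chromosome 2, 179442431 to 179899373, 456.9 kb), rose from 110 ± 3.03 to 154 ± 5.22 TMM CPM (SD, n = 3; log2 fold change 0.48 ± 0.03, SE, adjusted p = 6.13e-13). *Hs6st3*, a heparan sulfate sulfotransferase gene with 2 exons over 731.5 kb, rose from 199 ± 7.68 to 274 ± 7.53. *Dlgap2* (0.45), of the postsynaptic scaffold, rose likewise. Among the few losses was *Rbms3*, an RNA-binding protein gene of 1057 kb, from 12.45 ± 0.499 to 4.55 ± 0.279 TMM CPM (log2 fold change -1.45). The 3 longest gene models did not follow the class. *Gm20388* (4435 kb, 0.05), *Fgfr2* (2961 kb, -0.01) and *Ptprd* (2271 kb, -0.13) were not called.

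**Figure D5:**
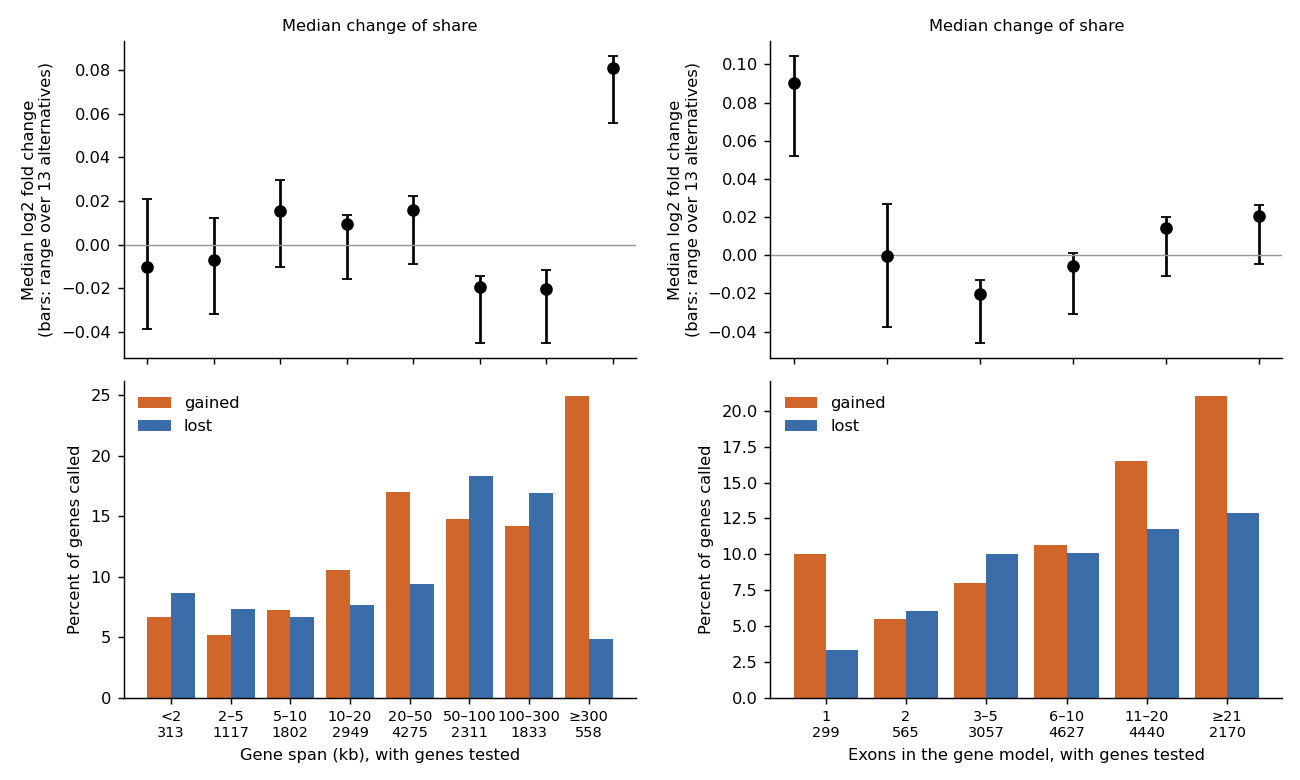
Protein-coding genes by gene span (left) and by number of exons in the gene model (right). Upper panels give the median log2 fold change of share (points) with the range over 13 alternative fits (bars), and lower panels the percent of genes that gained (orange) or lost (blue), with the number tested under each class. The class of 300 kb or more has a median of 0.08 and that of 1 exon 0.09, and the remaining medians lie between -0.02 and 0.02.

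By exon number, the 299 protein-coding genes with 1 exon had a median of 0.09, with 30 gaining (10.03%) and 10 losing share (3.34%), both below the 13.1% and 10.7% of all protein-coding genes. Of these, 57 were replication histones with a median of 0.17, and the 229 that were neither histone nor mitochondrial genes had a median of 0.09, with 20 gaining and 6 losing; both subsets were chosen after values were seen. The intronless genes with most reads, *mt-Nd5*, *mt-Nd6* and *mt-Co1*, are mitochondrial and are given above. Genes with 3 to 5 exons had a median of -0.02, and those with 21 or more a median of 0.02, with 456 of 2170 gaining (21.01%) and 280 losing (12.9%). The median log2 CPM rose from 1.17 with 1 exon to 5.74 with 21 or more, and the part of coverage in the share of genes called was not tested.

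The change from 10 to 20 min was last compared with that of *Tet2*-KO cells by an interaction term. *Tet2* (chromosome 3, 133463679 to 133545139) held 530.2 to 545.2 TMM CPM at 10 min under the *Tet2*-KO label against 563 to 576 in WT. Counts summed over a gene cannot tell of a deleted exon, so directions rest on the labels. In libraries labelled *Tet2*-KO the total per ERCC read was 89.6 to 100.7 at 10 min and 191.6 to 215.5 at 20 min. At an adjusted p under 0.05, 327 genes had a higher log2 change in *Tet2*-KO (1.64%) and 570 a lower one (2.86%), 4.51% in all. With all gene reads in place of TMM as library size, these numbers were 472 and 412. Of 11 fibroblast markers 8 were higher in *Tet2*-KO and none lower. *Tnc* went from 6.72, 7.23 and 4.54 TMM CPM at 10 min to 13.8, 14.3 and 11.7 at 20 min in *Tet2*-KO, the opposite of its fall in WT. Of 80 ribosomal protein genes 15 were higher in *Tet2*-KO and none lower, and of 18 glycolysis genes 6 were higher and none lower. Of 62 replication histones none was higher and 4 were lower.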

How the data were processed

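EU-labelled RNA was captured after rRNA depletion, and libraries were made with a stranded total RNA kit. Per the labels and methods, the authors trimmed reads with Trimmomatic (0.39), aligned them with HISAT2 (2.2.1) to mm10 with GENCODE M19 and ERCC sequences, and counted reads per gene with HTSeq (0.12.4). The values deposited by the authors are these raw counts for 54446 genes, 92 ERCC transcripts and the HTSeq summary rows. The feature type, strand setting and overlap mode of HTSeq are not given in the sources used here, so overlapping and antisense genes are uncertain. Genes that span 100 kb or more held 28.5% of the gene reads of the 6 libraries. Reads in the summary rows (no feature 15.9% to 16.9%, ambiguous 2.38% to 2.404%, not unique 5.285% to 5.79% of all rows) were left out. The authors went on to CPM, attomoles by a fit of the ERCC reads and a line on labelling time. A fit of the ERCC reads served here as an alternative scale, and the line was not repeated.

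Names, positions, spans, exons and 3′ UTRs came from GENCODE M21 on the same build, which matched 54409 genes. All 18 libraries were fitted with 6 groups by edgeR (4.0.16, R 4.3.3) after filterByExpr with a minimum count of 10, which left 19910 genes. Library sizes were TMM-scaled gene reads (share), all gene reads (rise against the total) or ERCC reads (level). The quasi-likelihood test was used with Benjamini-Hochberg adjustment at 0.05, and an SE is the absolute log2 fold change over the square root of F. Totals and summed shares were tested by exact permutation. Replicates were dishes of 1 line, so p-values reflect the spread between dishes, and counts carry no molecular identifiers. Replicate numbers did not pair the samples, with correlations of 0.00, 0.01 and 0.04 between same-numbered libraries.

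Named genes were the 10 highest and lowest protein-coding and 5 highest and lowest other genes by log2 fold change, if called, without overlap of the libraries and with a mean log2 CPM over 2 in all 18 libraries together; the 2 best covered and 2 most changed members of each list; the 3 highest and lowest interactions; and the 3 longest and the 3 best covered intronless protein-coding genes. Other names were added with values known. Some genes that this rule names are not reported here. Members and lists were chosen with earlier results of these data known. On simulated counts for 19910 genes edgeR recovered 97 of 100 genes changed by a log2 of 1 and 72 of 100 changed by 0.5, with 15 unchanged genes called. The changed genes were drawn only from well-covered genes, and before the change every library had the same mean profile. Recovery among genes with few reads was thus not measured. Alternatives were DESeq2 (1.42.0), other scales, filters and spike-in sums, the 6 WT libraries alone, a replicate block and each library left out.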

Additional observations from a re-analysis of the deposited data

Results flagged for a closer look

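The change of share from 10 to 20 min differed between genotypes by the interaction term (edgeR, adjusted p under 0.05) for 327 genes that were higher and 570 that were lower in *Tet2*-KO. The 3 highest among genes with a mean log2 CPM above 2 over the 18 libraries were *Acta2*, with a log2 change 3.94 higher in *Tet2*-KO than in WT (SE 0.24), *Col1a1*, 3.21 higher, and *Tnc*, 3.19 higher. *Acta2* went from 2.14, 2.63 and 3.17 TMM CPM at 10 min to 8.60, 8.42 and 8.27 at 20 min in *Tet2*-KO, while it fell in WT. The 3 lowest were 4930578M01Rik at -1.17, *Fam227a* at -1.09 and D830036C21Rik at -1.04. *Fam227a* went from 14.7, 11.8 and 11.1 TMM CPM to 8.23, 7.90 and 8.73 in *Tet2*-KO and from 9.61, 9.89 and 12.5 to 14.1, 13.3 and 17.2 in WT. 4930578M01Rik lost this call in 3 of 12 fits that left out 1 library, without replicate 3 of *Tet2*-KO at 20 min (-1.01, adjusted p = 0.0707), without replicate 2 of WT at 10 min (-0.98, adjusted p = 0.0514) or without replicate 1 of WT at 20 min (-1.08, adjusted p = 0.0592). D830036C21Rik lost it with DESeq2 (adjusted p = 0.0933) and without replicate 1 of *Tet2*-KO at 10 min (-0.75), replicate 2 of *Tet2*-KO at 20 min (-0.89) or replicate 3 of WT at 20 min (-0.85). Outlying libraries were not looked for, since every group has 3.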

How the results depend on the processing

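Numbers of genes past the threshold stayed within 1.5-fold of those reported under other scales, filters and DESeq2, with these exceptions. Genes gaining share were 1425 when only the 6 WT libraries were fitted, and beyond 1.2-fold 87 gained and 187 lost. Genes falling per ERCC read were 7 with at least 10 counts in every library. With DESeq2, 2088 genes gained share and 1816 lost. With all gene reads as library size in place of TMM the split of gains and losses was 1782 to 2210. Without each library in turn, gains of share ranged from 1757 to 2140 and losses from 1371 to 1860, genes above the total from 1408 to 1695 and below it from 1657 to 2091, genes rising per ERCC read from 18421 to 18834 and falling from 13 to 24, and genes with a higher change in *Tet2*-KO from 237 to 349 and with a lower one from 465 to 636. The ratio of the totals ranged from 3.03 to 3.30 and was 3.27 by the slope of the linear fit of the ERCC reads. With a replicate block 2205 genes gained share and 1834 lost, 1752 lay above and 2173 below the total, and 324 and 578 were higher and lower in *Tet2*-KO, but the numbers did not pair the samples.

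Spearman's rho with span was -0.0323 among genes with mean log2 CPM above 2, that with exon number 0.0339 there and 0.0345 in protein-coding genes, and that with transcript length 0.0723 and 0.0543. Without each library in turn rho ranged from -0.0239 to 0.00456 with span, -0.00618 to 0.0181 with exon number, 0.0179 to 0.0404 with transcript length and -0.0194 to -0.00197 with GC content. Signs of the log2 fold change turned in 7 named genes, none of them called. Without each library in turn *Rn7sk* ranged from -0.0375 to 0.221, *Terc* from -0.26 to 0.142, *Mtrex* from -0.0429 to 0.0141, *mt-Rnr1* from -0.0122 to 0.0152, *Fgfr2* from -0.033 to 0.0135 and *mt-Co1* from -0.0273 to 0.0645. With all gene reads as library size *Cnot1* was at -0.00618, *mt-Rnr1* at -0.0200 and *mt-Co1* at -0.0123, and with the 6 libraries alone *mt-Rnr1* was at -0.00674. The causes were not tested.

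ERCC RNA was added after capture, so the scale per ERCC read does not cover differences in capture between dishes. Genes with few reads, such as most fibroblast markers at 20 min, have wide errors.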

Other observations

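Genes that respond to low oxygen were looked at after the losses of glycolysis genes had been seen, and were in no list. *Bnip3*, of mitophagy, *Ndrg1*, of stress responses, and *Vegfa*, the vascular growth factor, lost share from 10 to 20 min, with log2 fold changes of -1.18 (SE 0.20, adjusted p = 2.64e-05), -1.17 (SE 0.18, adjusted p = 6.83e-06) and -0.91 (SE 0.11, adjusted p = 1.1e-07) by edgeR. In all 3 genes every WT library of 20 min was below every one of 10 min. In libraries labelled *Tet2*-KO, *Vegfa* held 49.95, 64.9 and 64.3 TMM CPM at 10 min and 42.5, 47.8 and 41.7 at 20 min. By the interaction term its change differed from WT by 0.48 (adjusted p = 0.0491). The changes of *Bnip3* (0.06, adjusted p = 0.954) and *Ndrg1* (0.47, adjusted p = 0.379) were not called different from WT by that term. The genes were chosen for their values, so this is a description.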
